A study of Mus musculus with 6 samples.

Results

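Heat shock proteins are molecular chaperones that bind unfolded or damaged proteins. Many of them are made in larger amounts after heat, injury or other stress, when heat shock factor 1 binds short repeated elements in their promoters. Hsp70 proteins do the folding work with J-domain partners that deliver substrates and with exchange factors that release them; Hsp90 proteins finish the folding of kinases and receptors; small heat shock proteins hold unfolded proteins until others refold them; and separate family members serve the endoplasmic reticulum and mitochondria. In sensory neurons the small heat shock protein Hspb1 is known for its link to axon survival after nerve injury, and mutations in its human counterpart and in that of Hspb8 cause hereditary neuropathy.

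The 10 genes described here are Hspa1a, Hspa1b, Hspa8, Hsph1, Dnajb1, Hsp90aa1, Hspb1, Hspb8, Hspa5 and Hspd1, taken by symbol from the 38926 gene symbols counted. All 10 had enough reads to be tested, among 17534 tested genes. They were read in total RNA of whole dorsal root ganglia from lumbar levels L3, L4 and L5 of male, wild type C57BL/6 mice aged 6-8 weeks. The burn group held 3 libraries, taken on day 3 of the injury, and the control group 3, numbered here by their titles; 1 burn library is titled BURN_IP, with IP explained in the series' design text as ipsilateral, and is called burn 3 since it has no number. The labels do not say what the control mice received, where the burn was placed, whether ganglia of several mice were pooled, or that each library came from a separate animal. The p-values therefore rest on the spread among these samples alone, and that spread may be technical. In bulk tissue, fewer cells of a type and less RNA per cell cannot be told apart.

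Reads counted in genes ran from 17273908 to 81968142 per library. Control 3 and burn 3 were the 2 deepest libraries and had the highest shares of mitochondrial transcripts (4.41% and 5.44%, against 1.71% to 2.70% in the other 4). The labels call the tissue neurons as well as whole ganglia, and all 10 sensory neuron markers were present. Their summed level in CPM (read counts scaled to a common library total) was 10211, 12237 and 10829 in burn libraries 1 to 3. In control libraries 1 to 3 it was 10979, 10952 and 14082 CPM. Other cells were present too. The 6 Schwann cell markers summed to between 3942 and 8994 CPM, and the 12 skeletal muscle markers to 3080, 11366 and 1993 CPM in burn libraries 1 to 3 and 12402, 4194 and 807 CPM in control libraries 1 to 3. The 9 spinal cord markers, each present, summed to 89.1 to 205 CPM after the burn and to 53.2 to 86.8 CPM in controls. Of the 9, 8 were higher at an unadjusted p under 0.05 in edgeR, 4 were higher without overlap, and 0 passed after adjustment. The matching shares of all tested genes were 2.04%, 4.33% and 0.0228%. No marker of these lists was at 0 in every library, and the part of these cells in the values of the 10 genes was not tested. Atf3, a stress-induced transcription factor of injured neurons, rose 10.3-fold (edgeR adjusted p 0.000387).

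Promoters were searched for letters of known stress elements. For this, 8 of the 10 genes had entries in the RefSeq promoter table (GRCm38.p6), 11 entries in all. A heat shock element is built from GAA units in alternating orientation. A pair of units, GAANNTTC or TTCNNGAA (each reads the same on both strands), was found in the 250 bases before the start in 6 of the 11 entries, from 5 genes, against 12.84% of all 32851 promoters. Both entries of Hsph1 hold the same site, and the Hspa1a and Hspa1b entries are near-identical, so the 6 are not independent. A run of 3 adjoining units, GAANNTTCNNGAA or TTCNNGAANNTTC on either strand, were found in 1 entry, of Hspd1, against 0.4657% of all promoters; each such match also holds the pair. The endoplasmic reticulum stress element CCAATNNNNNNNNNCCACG, searched on both strands and containing the CCAAT box, was found in 1 entry, of Hspa5, against 0.1126%. A match is a description of letters and not a measured binding site.

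The Hspa1a and Hspa1b promoters are shown whole because these genes are neighbouring, near-identical copies, and the Hspb1 promoter because it holds 2 pairs of units. Capitals mark the paired units. Hspa1a lies on the minus strand at chr17:34972157-34972406, Hspa1b on the minus strand at chr17:34959239-34959488 and Hspb1 on the plus strand at chr5:135887669-135887918.
Hspa1a: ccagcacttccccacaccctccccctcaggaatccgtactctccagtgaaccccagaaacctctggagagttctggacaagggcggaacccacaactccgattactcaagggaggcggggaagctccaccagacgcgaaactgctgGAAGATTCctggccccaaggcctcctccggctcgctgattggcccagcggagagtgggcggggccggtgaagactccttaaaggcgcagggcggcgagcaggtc
Hspa1b: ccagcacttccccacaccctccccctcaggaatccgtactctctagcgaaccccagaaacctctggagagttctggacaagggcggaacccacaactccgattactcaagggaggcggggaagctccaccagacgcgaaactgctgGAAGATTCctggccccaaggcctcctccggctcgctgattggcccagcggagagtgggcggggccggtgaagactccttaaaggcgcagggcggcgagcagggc
Hspb1: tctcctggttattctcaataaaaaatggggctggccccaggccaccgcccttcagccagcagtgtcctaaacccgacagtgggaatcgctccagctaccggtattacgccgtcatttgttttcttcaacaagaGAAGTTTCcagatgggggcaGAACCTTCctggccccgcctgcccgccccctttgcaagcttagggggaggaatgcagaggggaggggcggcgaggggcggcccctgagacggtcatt
The Hspa1a and Hspa1b promoters were identical at 247 of 250 positions. The 3 differences, with the Hspa1a base first and positions counted from 1 at the 5′ end, were C44T, T47C and T249G, all outside the paired units.

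Short stretches of 30 bases are shown for 3 other genes, with the matched element in capitals. They lie at chr1:55088053-55088082 on the minus strand for Hspd1 (a run of 4 alternating units, in the downstream of its 2 entries), chr2:34772019-34772048 on the plus strand for Hspa5 (the endoplasmic reticulum stress element) and chr5:149636351-149636380 on the minus strand for Hsph1 (a pair of units).
Hspd1: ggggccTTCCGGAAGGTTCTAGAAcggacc
Hspa5: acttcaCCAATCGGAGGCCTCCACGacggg
Hsph1: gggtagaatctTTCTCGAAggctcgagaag
The capitals end 127 bases before the start for Hspd1, 47 for Hspa5 and 26 for the upstream of the 2 starts of Hsph1. The capitals of Hspd1, Hspa5 and Hsph1 lie inside annotated exons of these genes. The windows of Hspb8 and Dnajb1, and the upstream entry of Hspd1, held neither element.

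Levels of different genes were compared per kilobase of annotated exon. In control ganglia Hspa8, the constitutive Hsp70 of the cytosol, stood highest at 188 ± 28.0 CPM per kilobase (mean ± SD, n = 3), above 99.2% of the 16534 tested genes with a length. Hspb8 followed at 174 ± 4.69, then Hsp90aa1 at 105 ± 20.2, Hspa5 at 95.1 ± 5.77, Hspb1 at 41.4 ± 6.04, Hspd1 at 38.5 ± 5.25, Hsph1 at 23.1 ± 2.21 and Dnajb1 at 16.8 ± 0.985 CPM per kilobase. The stress-inducible Hspa1b and Hspa1a were lowest, at 2.45 ± 0.412 and 1.58 ± 0.249 CPM per kilobase, under the median of 4.55 over tested genes. The control ranges of Hspa8 and Hspb8 overlapped, as did those of Hsp90aa1 and Hspa5 and those of Hspb1 and Hspd1, while every other pair of neighbours in this order was separate. Per kilobase of exon, Hspa8 stood at 42.6 to 58.7 times the sum of Hspa1a and Hspa1b across the 6 libraries. This ratio was not corrected for sequence shared with other genes.

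**Figure D1:**
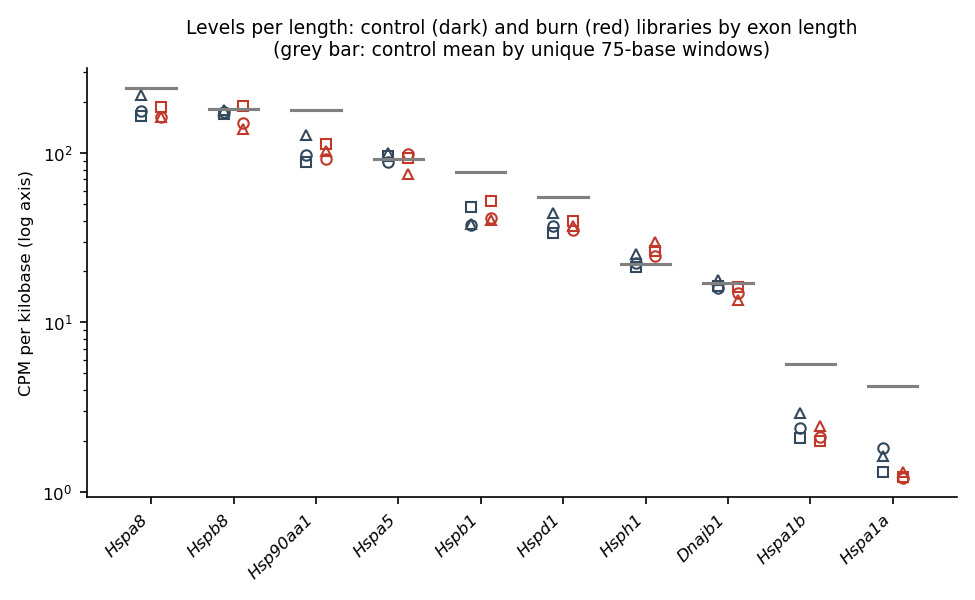
Level of each gene in CPM per kilobase of exon on a log axis, with 1 point for each control (dark) and burn (red) library and shapes for libraries 1 (circle), 2 (square) and 3 (triangle). Grey bars give the control mean per kilobase of 75-base windows that occur in no other gene's transcripts. Hspa8 and Hspb8 are at the top, and Hspa1b and Hspa1a are far below the other 8 genes by either length.

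The size of these levels depends on which reads could be placed. The counts leave out reads that map to several places, and 61.7% of the 75-base windows of Hspa1a transcripts occur in transcripts of other genes, as do 55.84% for Hspa1b, 46.41% for Hspb1, 42.77% for Hsp90aa1, 33.05% for Hspa8 and 30.99% for Hspd1. None of the windows of Hspa5, Hspb8, Hsph1 or Dnajb1 did. Divided by the windows found in no other gene, the control means were 5.70 ± 0.958 CPM per kilobase for Hspa1b, 4.24 ± 0.667 for Hspa1a, 77.4 ± 11.3 for Hspb1, 181 ± 34.8 for Hsp90aa1, 244 ± 36.4 for Hspa8 and 55.0 ± 7.51 for Hspd1, with Hspb8 at 181 ± 4.87. The order of the 10 means was the same, but the gaps were not. By these control means, Hspa8 against the summed Hspa1a and Hspa1b, and Hspb8 against Hspb1, had smaller ratios than per kilobase of exon. The median over tested genes was taken by exon length alone. Hspb8 and Hsp90aa1 now had equal means to 3 digits and overlapping ranges, and Hspa5 overlapped Hspb1. Hspa8 stood apart from Hspb8, Hsp90aa1 from Hspa5 and Hspb1 from Hspd1. Hspa8, whose control range began at 216 CPM per kilobase, still overlapped Hsp90aa1, whose range reached 220.

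None of the 10 heat shock protein genes was called higher or lower 3 days after the burn. With edgeR's quasi-likelihood test over all tested genes, 0 of 10 passed at an adjusted p under 0.05, where 0.0228% of tested genes did (4 genes), and each of the 10 had an adjusted p of 0.9998. At an unadjusted p under 0.05, 0 of 10 passed, against 2.96% of tested genes (2.04% higher and 0.924% lower), and the lowest unadjusted p in edgeR was 0.0964, for Hspa1a. DESeq2 and limma-voom also called 0 of 10, with 0 at an unadjusted p under 0.05. The log2 fold changes were negative for 8 genes and positive for 2, with a median of -0.11 beside 0.01 over all tested genes. The 95% interval of every gene's fold change held 1 and lay inside a 2-fold change in either direction, as it did for 82.1% of tested genes. The widest bounds were a fall to 0.581-fold, for Hspa1a, and a rise to 1.43-fold, for Hsph1. Changes inside these bounds could not be told from the spread between libraries.

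**Figure D2:**
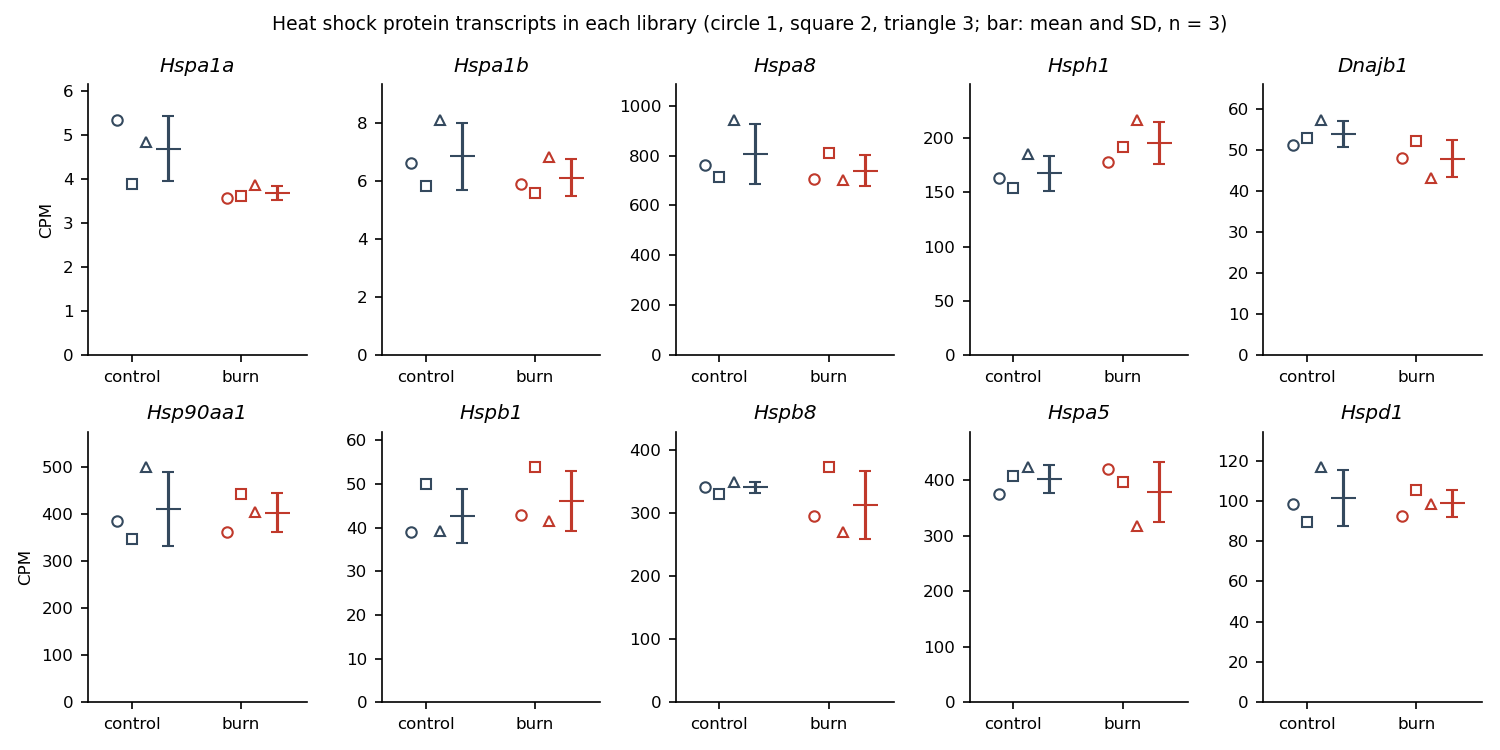
CPM of each gene in each library, with axes from 0, 1 symbol for each library and a bar with the mean and SD of the 3 libraries of a group. The groups overlap in 9 of the 10 panels; in Hspa1a the burn libraries lie at 3.58 to 3.88 CPM and the control libraries at 3.90 to 5.35.

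Hspa1a and Hspa1b encode the stress-inducible Hsp70 and are single-exon genes on chromosome 17. Hspa1a, at 34969190 to 34972156 (GRCm38), had 81, 109 and 255 reads in burn libraries 1 to 3 and 196, 70 and 385 in control libraries 1 to 3. In CPM these were 3.58, 3.61 and 3.88 after the burn and 5.35, 3.90 and 4.84 in controls. It was the single gene of the 10 whose groups did not overlap, all burn values being lower. Of all tested genes, 7.24% had groups without overlap and 2.91% had them lower after the burn. The gap between the highest burn value and the lowest control value was small. Its log2 fold change was -0.35 (SE 0.19, 95% interval -0.78 to 0.08), and the 2 deeper libraries gave -0.32 and the 4 shallower ones -0.34.

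Hspa1b, at 34956436 to 34959238, stood at 5.92, 5.60 and 6.83 CPM after the burn and 6.64, 5.84 and 8.12 in controls, so the groups overlapped. Its log2 fold change was -0.17 (SE 0.18, 95% interval -0.59 to 0.25), and it was -0.0228 without control 3. The pair was also tested as 1 sum, which gave a log2 fold change of -0.24 (edgeR adjusted p 0.9999). Reads that both copies share are left out of the counts, so the sum does not recover them. Exons of Hspa1a also overlap those of Gm20481 on the other strand over 564 bases, but Gm20481 had 2 reads in all 6 libraries together.

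Hspa8 (chromosome 9, 40800984 to 40810087) is the housekeeping Hsp70 that folds new proteins and uncoats clathrin vesicles. It stood at 705, 812 and 703 CPM in burn libraries 1 to 3 and at 764, 715 and 943 CPM in control libraries 1 to 3. Control 3 lay above the other 5 libraries, which spanned a narrow range. The log2 fold change was -0.13 (SE 0.15, 95% interval -0.47 to 0.22), and it was -0.43 between the 2 deeper libraries and 0.03 among the 4 shallower ones.

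Dnajb1, a J-domain protein that delivers substrates to Hsp70, and Hsph1, an Hsp110 protein that exchanges its nucleotide, are partners of this system and, like Hspa1a, targets of heat shock factor 1. Dnajb1 (chromosome 8, 83608193 to 83612653) stood at 48.0, 52.2 and 43.2 CPM after the burn and 51.2, 52.8 and 57.3 in controls. Burn 2 lay within the control range and the other 2 burn libraries below it, with a log2 fold change of -0.17 (SE 0.11, 95% interval -0.43 to 0.09). Between the 2 deeper libraries its difference was -0.41, and among the 4 shallower ones -0.05. Hsph1 (chromosome 5, 149614287 to 149636376) had the opposite sign, at 178, 192 and 217 CPM after the burn and 163, 154 and 186 in controls. Burn libraries 2 and 3 lay above all controls and burn 1 did not. Its log2 fold change was 0.22 (SE 0.13, 95% interval -0.07 to 0.52), with 0.23 between the 2 deeper libraries and 0.22 among the 4 shallower ones.

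Hsp90aa1 (chromosome 12, 110690605 to 110702728), the inducible form of cytosolic Hsp90, stood at 362, 444 and 406 CPM after the burn and 385, 349 and 501 in controls. The lowest and the highest value of the 6 were both in control libraries. The log2 fold change was -0.03 (SE 0.17, 95% interval -0.41 to 0.36). Its constitutive counterpart Hsp90ab1 stood at 5.02 to 5.69 times its level per kilobase of exon across the 6 libraries. This ratio was not corrected for windows shared with other genes, which were 42.77% for Hsp90aa1. By the other windows alone, the control mean of Hsp90aa1 was 181 CPM per kilobase, against 105 by exon length. No such value was taken for Hsp90ab1, so the size of a corrected ratio was not tested. For Hsp90ab1 the burn and control libraries differed by -0.09 on the log2 scale (SE 0.17).

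The small heat shock proteins Hspb1 and Hspb8 both bind unfolded protein without ATP, and Hspb8 works with Bag3 in chaperone-assisted autophagy. Hspb1 (chromosome 5, 135887919 to 135889563) stood at 42.8, 53.9 and 41.5 CPM after the burn and 39.0, 49.9 and 39.3 in controls. Burn 2 and control 2 were the high libraries, so each group held 1 high value and 2 low ones. The log2 fold change was 0.11 (SE 0.15, 95% interval -0.24 to 0.46).

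Hspb8 (chromosome 5, 116408491 to 116422864) stood at 295, 372 and 270 CPM after the burn and 341, 331 and 349 in controls. The controls lay close together, with a coefficient of variation of 2.69%, while the burn libraries spread to both sides of them, with 17.1%. The log2 fold change was -0.12 (SE 0.14, 95% interval -0.46 to 0.21). Per kilobase of exon, not corrected for the shared windows of Hspb1, Hspb8 stood at 3.44 to 4.69 times the level of Hspb1 in the 6 libraries. The 2 highest ratios were in control 1 and control 3, while control 2 lay among the burn libraries.

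Hspa5, also known as BiP, is the Hsp70 of the endoplasmic reticulum and rises when unfolded proteins gather there. It lies on chromosome 2 at 34771970 to 34777547 and stood at 421, 397 and 318 CPM after the burn and 376, 407 and 424 in controls. Burn 3 was the low library, and burn libraries 1 and 2 lay within the control range. The log2 fold change was -0.09 (SE 0.14, 95% interval -0.42 to 0.24), with -0.42 between the 2 deeper libraries and 0.06 among the 4 shallower ones.

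Hspd1, the mitochondrial chaperonin, lies on chromosome 1 at 55077835 to 55088243, head to head with its partner Hspe1, with 112 bases of exon shared on opposite strands. It stood at 92.4, 106 and 98.2 CPM after the burn and 98.6, 89.5 and 117 in controls, and every burn value lay within the control range. The log2 fold change was -0.04 (SE 0.13, 95% interval -0.34 to 0.25), and that of Hspe1 was -0.05 (SE 0.19).

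**Figure D3:**
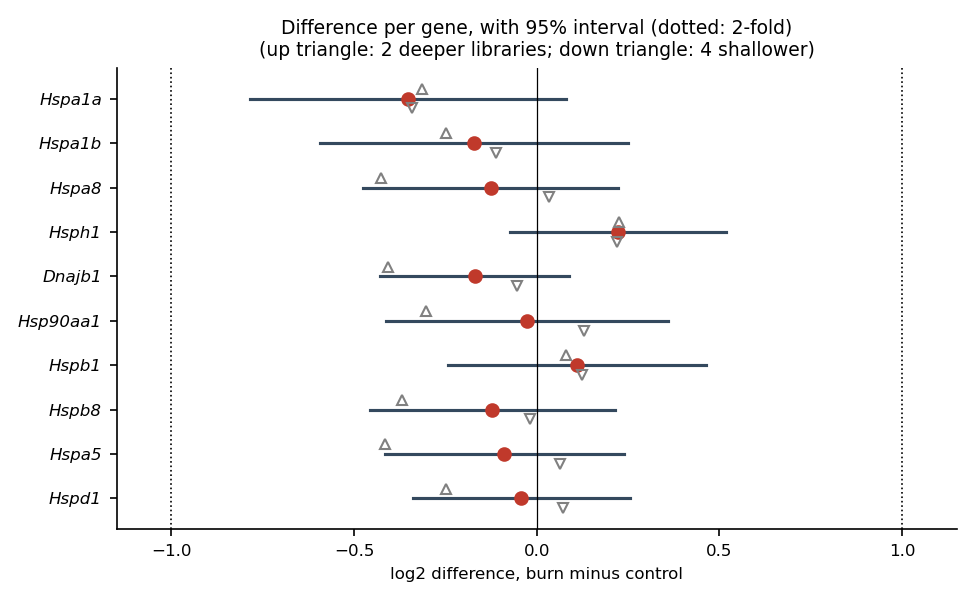
Log2 difference between burn and control for each gene (red point, with the 95% interval as a bar), with the difference between the 2 deeper libraries (up triangle) and among the 4 shallower libraries (down triangle). Every interval crosses 0 and stays inside the dotted lines of a 2-fold change, and the 2 triangles lie close together for Hspa1a, Hsph1 and Hspb1.

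The sign of the difference was not the same in the deeper and the shallower libraries for several genes. Burn 3 was lower than control 3 in 8 of the 10 genes. Among the 4 shallower libraries the burn mean of log2 CPM, scaled over all 6 libraries, was lower in 4 of 10. Control 3 alone held the highest value of 6 genes (Hspa1b, Hspa8, Hsp90aa1, Hspa5, Dnajb1 and Hspd1), and 9 of the 10 genes stood above their own mean there. Burn 3 held the lowest value of 4 genes (Hspa5, Hspa8, Hspb8 and Dnajb1). All reads of the 10 genes together made up 0.221%, 0.245% and 0.198% of gene reads in burn libraries 1 to 3 and 0.227%, 0.224% and 0.255% in control libraries 1 to 3. Without control 3 the median log2 fold change of the 10 genes was -0.01. The summed sensory neuron markers were likewise highest in control 3 (14082 CPM) and lowest in burn 1 (10211 CPM). Of those 10 markers, 8 had negative log2 fold changes and 2 positive ones, with a median of -0.10. Whether neuron content had a part in the values of the heat shock protein genes was not tested. The median biological coefficient of variation was 0.162 for the 10 genes and 0.163 for the 13151 tested genes whose log2 CPM averaged 2 or more. Those genes were not matched to the 10 in abundance.

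**Figure D4:**
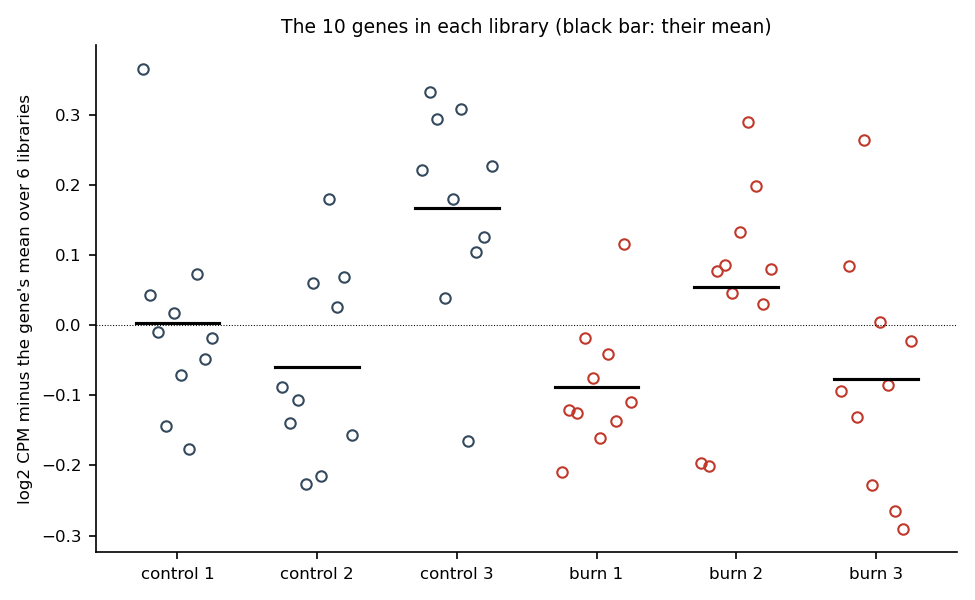
Log2 CPM of the 10 genes in each library, each centred on its own mean over the 6 libraries, with 1 point for each gene and a black bar for their mean. The mean is highest in control 3 (0.17) and lowest in burn 1 (-0.09), and burn 2 (0.05) lies above control libraries 1 and 2 (0.00 and -0.06).

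Near-identical copies elsewhere in the genome were also assigned reads. Hsp25-ps1, a processed pseudogene of Hspb1 on chromosome 13, was assigned 12645 reads over the 6 libraries, against 10775 for Hspb1 itself. In CPM it stood at 44.6, 55.4 and 45.8 after the burn and 42.9, 51.5 and 55.9 in controls. Its highest value was in control 3, where Hspb1 was at 39.3 CPM. For Hsp90aa1, with 108482 reads, the pseudogene Gm12346 on chromosome 11 was assigned 48901 reads and Gm5844 on chromosome 3 another 10719. Hspa8 had 202595 reads and its pseudogene Gm15459 on chromosome 5 had 12065. Whether these reads were transcribed from the copies or came from the parent genes was not tested. Added to their parents with every other copy of this kind, in a test chosen after the data were seen, they gave log2 fold changes of 0.03 for Hspb1 (SE 0.14), -0.01 for Hsp90aa1 (SE 0.17) and -0.12 for Hspa8 (SE 0.15), none of which passed in edgeR (adjusted p 0.9997 for each). The pair Hspa1a and Hspa1b, summed with Gm10501 and Gm20481, gave -0.15 (SE 0.14), against -0.24 without them. Gm10501, annotated as antisense, was assigned 718 reads, with a log2 fold change of 0.18 (SE 0.19). Gm20481 overlaps Hspa1a on the other strand. Both were found by windows matched on either strand, so neither is shown to be a copy.

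No gene of the wider chaperone network passed the test. Over 9 lists, 85 of 87 other genes were tested, and edgeR called 0 of them, with 0 at an unadjusted p under 0.05; DESeq2 and limma-voom gave the same counts of 0. Some genes stand in more than 1 list. Cryaa and Hspb9 had too few reads. Their median log2 fold change was -0.06, with 20 genes positive and 65 negative, and the range ran from -0.77 to 0.19. Of all tested genes 47.9% were negative. Between the 2 deeper libraries 56 of the 85 were negative (median difference -0.10), against 45.1% of all tested genes, and among the 4 shallower ones 48 of 85 (median -0.02), against 49.9%. The groups did not overlap in 6 of the 85, with 1 higher (Bag3) and 5 lower (Cdc37, Dnajb11, Dnajb2, Hspa14 and Hspa2), where 4.33% and 2.91% of tested genes were higher and lower in this way. For 81 of the 85 the interval lay within a 2-fold change.

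None of the 4 heat shock factor genes passed. Hsf1, the main regulator of the heat response, stood at 26.4, 23.7 and 17.6 CPM after the burn and 20.0, 25.5 and 23.5 in controls (log2 fold change -0.03, SE 0.18), although the factor is known to be controlled mostly after translation. Hsf2 had 0.06 (SE 0.18). Of 10 genes for exchange factors and the ligase Stub1, Bag3, the partner of Hspb8 and a target of heat shock factor 1, stood at 92.4, 90.4 and 93.2 CPM after the burn and 76.9, 86.6 and 89.9 in controls. Its burn values were all above the controls by a narrow margin, with a log2 fold change of 0.12 (SE 0.10). Sil1, the exchange factor of Hspa5, had -0.22 (SE 0.11).

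Among 15 other J-domain genes, 6 were positive and 9 negative. Dnajb2, a neuronal member, stood at 33.7, 33.2 and 31.5 CPM after the burn and 35.6, 38.1 and 39.4 in controls, with the lowest p of the network (edgeR unadjusted p 0.0789, adjusted p 0.9998). Of 12 Hsp90 and cochaperone genes 11 were negative, with a median of -0.09 and Fkbp4, an immunophilin of steroid receptor complexes, at -0.19 (SE 0.14). In that list 10 of 12 were negative between the 2 deeper libraries, with a median of -0.22, and 8 of 12 among the 4 shallower ones, with a median of -0.03. The 10 other Hsp70 and Hsp110 genes had a median of -0.02.

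The compartments served by Hspa5 and Hspd1 were described by lists of their own. In the endoplasmic reticulum list of 20 genes, 8 were positive and 12 negative, with a median of -0.05. Creld2, an inducible gene of that compartment, had -0.29 (SE 0.17), Manf -0.13 (SE 0.11) and the disulfide isomerase gene Pdia3 0.13 (SE 0.11). The 9 genes of mitochondrial chaperones and proteases all had negative values, between -0.19 and -0.0023, with a median of -0.07; Lonp1, a matrix protease, had -0.19 (SE 0.11). Among the 4 shallower libraries 4 of these 9 were negative, and between the 2 deeper ones 7. The 8 genes of the cytosolic chaperonin lay between -0.06 and 0.07.

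**Figure D5:**
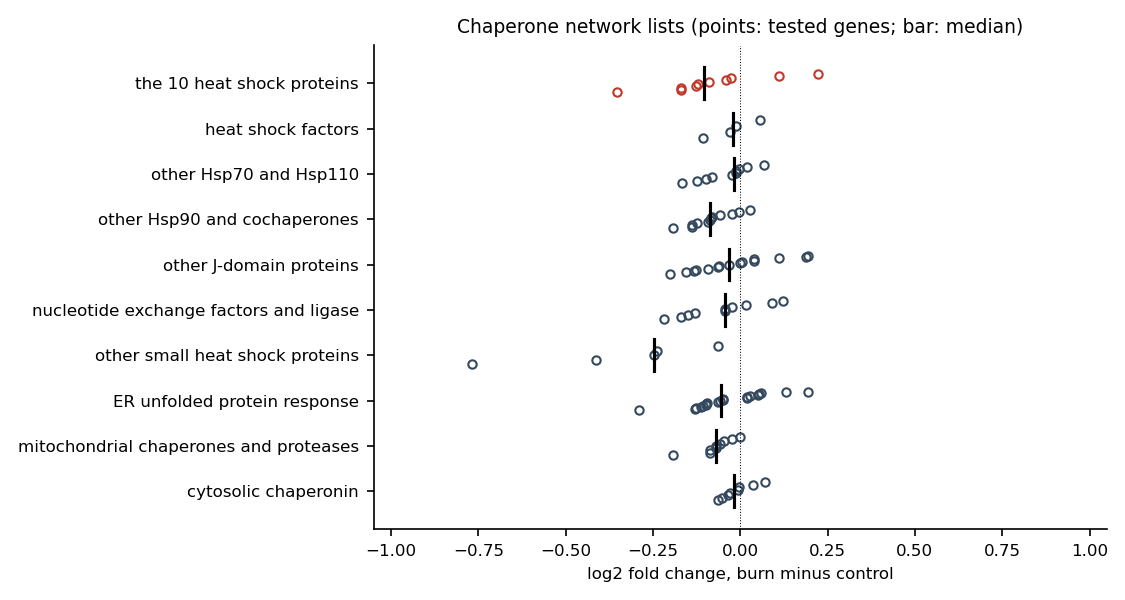
Log2 fold change, burn minus control, of the 10 heat shock proteins (red) and of the tested genes in 9 lists of the chaperone network (dark), with 1 point for each gene and a bar for each median. Points lie near 0 in every list, and the list of other small heat shock proteins reaches furthest, to -0.77 for Hspb7.

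Of the other small heat shock proteins 5 were tested, and their values spread unevenly. All 5 had negative log2 fold changes, with a median of -0.25. Among the 4 shallower libraries 5 of 5 were negative (median -0.36), and between the 2 deeper ones 0 of 5 (median 0.13). Cryab, abundant in glia, stood at 131, 108 and 117 CPM after the burn and 123, 139 and 110 in controls (log2 fold change -0.06, SE 0.13). Hspb7, a muscle gene, stood at 3.80, 14.0 and 5.41 CPM after the burn and 26.1, 11.5 and 2.16 in controls. Hspb6 stood at 7.82, 18.2 and 4.90 CPM and at 20.9, 10.6 and 4.86 CPM. Their log2 fold changes were -0.77 (SE 0.95) and -0.24 (SE 0.66). These 2 genes were highest in control 1 and burn 2, the libraries in which the 12 skeletal muscle markers summed to 12402 and 11366 CPM; the part of muscle RNA in their values was not tested. Hspb7, Hspb6, Hspb3 and Hspa1l were the 4 genes of the network whose intervals exceeded a 2-fold change; Hspb6 and Hspa1l are named after their values were seen. Hspb3 (1.47 and 1.16 CPM) and Hspa1l (2.84 and 2.81 CPM) were also highest in control 1 and burn 2. Burn 2 held the highest Hspb1 and Hspb8 values of the 6 libraries. In control 1 Hspb1 had its lowest value, 39.0 CPM, and Hspb8 stood at 341 CPM. The part of muscle RNA was not tested for these genes either.

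Early response genes are induced within minutes by activity or handling of tissue. The 12 genes summed to 207 to 258 CPM after the burn and to 201 to 247 CPM in controls, and 0 passed in edgeR, DESeq2 or limma-voom (0 at an unadjusted p under 0.05 in each), with a median log2 fold change of -0.05. Jun stood at 81.3, 80.8 and 75.3 CPM after the burn and 62.2, 70.8 and 72.8 in controls (log2 fold change 0.21, SE 0.10), higher without overlap. The nerve injury list stood in contrast, with 3 of 10 genes called higher (Atf3, Gpr151 and Npy) and a median of 2.29; that list was known to be high in these samples when it was chosen and is not independent evidence.

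The genes whose levels over the 6 libraries were most like the mean of the 10 were Tubb5, a tubulin, Abhd12, a lipid hydrolase, Gfod1, Sqstm1, an autophagy receptor, and Atp6ap1, a proton pump subunit. Likeness was the root mean square difference of centred log2 CPM, which was 0.0185 for Tubb5 and 0.0216 for Atp6ap1, against a median of 0.171 over 11398 candidates whose log2 CPM averaged 3 or more. The 5 were picked for the smallest differences, so their place under that median was fixed in advance. All 5 were highest in control 3, as the mean of the 10 was, and all values come from the same libraries. Among the 10 themselves, Hspd1 (0.0539) and Hspa8 (0.0627) lay closest to that mean and Hspb1 (0.207) farthest from it. Hspa1a (0.189) and Hsph1 (0.177) also lay farther from it than the median candidate, so the mean describes these genes poorly.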

How the data were processed

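Each library came as 1 table in which the authors deposited whole-number read counts for gene symbols. Per the submitters' processing notes the tools were STAR, SAMtools and HTSeq, with GRCm38 and mm10 listed as builds. Libraries were stranded total RNA, per the labels' protocols. The counting annotation, and whether strand was used, were not given in the sources used here. The 5 tally lines that name no gene held 49.2% to 56.2% of entries, mostly alignments that were not unique, and were left out.

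Testing used edgeR 4.0.16 in R 4.3.3 (filterByExpr with a minimum count of 10 and total of 15, TMM, glmQLFit with robust set, glmQLFTest, two-sided, group as the only term), with Benjamini-Hochberg adjustment over 17534 genes. Intervals are the log2 fold change ± the t quantile times its SE, at 95%. All 6 libraries were used. Alternatives included DESeq2 1.42.0 and limma-voom 3.58.1. The code was tested on simulated data. Lengths, coordinates and shared windows of 75 bases came from GENCODE mouse release 21 (GRCm38). Motifs were searched in the 250 bases before the start.

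The members and lists were chosen with earlier results of these data known. Named were all 10 genes, the up to 4 genes with the lowest p in each list and any called gene, Atf3, and the 5 genes of most similar pattern. Hsp90ab1, Hspe1, Npy, Gpr151, the copies, Gm10501, Gm20481 and the network genes without overlap are named beside a result.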

Additional observations from a re-analysis of the deposited data

How the results depend on the processing

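In 20 alternative settings, 0 heat shock protein genes were called higher or lower; the lowest adjusted p of any of them was 0.913, in edgeR with a depth term. Of 196 values, 17 had the other sign. All were of genes between -0.13 (Hspa8) and 0.11 (Hspb1) in the main test, where the median absolute log2 fold change of the 10 was 0.12. The values of the other sign included, on the log2 scale, Hsp90aa1 with limma-voom (0.0013). In a fit of the 4 shallower libraries alone they were Hsp90aa1 (0.15), Hspa5 (0.077), Hspa8 (0.051), Hspb8 (0.0054) and Hspd1 (0.087). By the difference of log2 CPM used above, Hspb8 was -0.018 in those libraries. Leaving out 1 library at a time gave Hsp90aa1 -0.14 (without control 2) to 0.15 (without control 3; also 0.045 without burn 1), Hspa5 -0.17 (without burn 1) to 0.035 (without burn 3), Hspa8 -0.21 (without control 2) to 0.0095 (without control 3), Hspb1 -0.014 (without burn 2) to 0.23 (without control 2) and Hspd1 -0.13 (without control 2) to 0.078 (without control 3; also 0.0015 without burn 1). Hspa1a, Hspa1b, Dnajb1 and Hsph1 kept their signs in every setting run, but not their size. Leaving out 1 library gave Hspa1a -0.46 (without control 2) to -0.25 (without control 1), Hspa1b -0.27 (without control 2) to -0.023 (without control 3), Dnajb1 -0.24 (without burn 2) to -0.090 (without burn 3) and Hsph1 0.15 (without burn 3) to 0.31 (without control 3). In the fit of the 4 shallower libraries Dnajb1 was -0.038, Hspa1b -0.11 and the median of the 10 genes 0.064. When 1 library was left out, that median ran from -0.14 to -0.0066, the latter without control 3. The cause was not tested.

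Over all genes, 4 were called higher and 0 lower. The higher count was 14 with no filter, 28 with DESeq2 and 7 at an adjusted p under 0.1. With a depth term it was 17 higher and 21 lower, and in the 4 shallower libraries 11 and 4. Leaving out 1 library gave 1 to 6 higher and 0 lower, with 1 without control 1, control 2, control 3 or burn 2.

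The labels do not say what the shared numbers in the titles mean, and deviations of libraries with the same number correlated at -0.39. With a replicate block over libraries 1 and 2, edgeR called 4 genes higher and 0 lower, the median of the 10 was 0.063, and Hsp90aa1 (0.14), Hspa5 (0.077), Hspa8 (0.048) and Hspd1 (0.086) had the other sign. Hspa1a rests on 70 to 385 reads a library, so its counting error is the largest of the 10.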
